A study of Arabidopsis thaliana with 96 samples.

Results

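The 9 cold and dehydration responsive COR genes of Arabidopsis thaliana were followed in leaves grown at 3 light levels and 4 nitrate doses. They were chosen by locus, as COR15A, COR15B, KIN1, KIN2, COR47, RD29A, LTI30, ERD10 and ERD14, and are 9 of the 32833 loci in the count table. Polyadenylated RNA was sequenced from 2 leaf punches of each plant, all of the accession Col-0. The groups combined high (500), mid (250) or low (100) light, a photon flux in µmol m-2 s-1 taken in rising order, with nitrate at 2, 5, 10 or 20 mM, and held 8 plants each (96 libraries). All plants had their seeds kept at 4 °C for 72 h, started on sucrose medium, and were then grown in clay under 8 h days at 23 °C and 16 h nights at 21 °C, with harvest 30 days after transplanting. The labels name no cold or drought treatment of the plants, and the hour of harvest is not given in the sources used here.

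COR genes encode small, very hydrophilic proteins that accumulate when plants are chilled, dried or salt-stressed, and that protect membranes and other proteins while cells lose water. In the cold, CBF transcription factors bind a short promoter element, the C-repeat or dehydration-responsive element (CRT/DRE), and switch the genes on. Drought acts in part through the hormone abscisic acid (ABA), whose bZIP factors bind the ABA-responsive element (ABRE). COR15A and COR15B are paired chloroplast stroma proteins that stabilise membranes during freezing. KIN1 and KIN2 are small KIN proteins, RD29A (also LTI78) is a widely used reporter of CRT/DRE activity, and COR47, ERD10, ERD14 and LTI30 are dehydrins, a family of late embryogenesis proteins.

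Among the members 3 pairs sit side by side in the genome. In the TAIR10.1 annotation KIN1 is AT5G15960 (chr5:5209717-5210826) and KIN2 is AT5G15970 (chr5:5211719-5212743). COR15A is AT2G42540 (chr2:17710441-17712330) and COR15B is AT2G42530 (chr2:17708593-17710433). COR47 is AT1G20440 (chr1:7084409-7086873) and ERD10 is AT1G20450 (chr1:7087903-7089606). RD29A is AT5G52310 (chr5:21240717-21243644), LTI30 is AT3G50970 (chr3:18940643-18941611) and ERD14 is AT1G76180 (chr1:28586663-28587931). The coding sequences of COR15A and COR15B matched at 63.8% of aligned positions and those of COR47 and ERD10 at 72.0%.

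KIN1 and KIN2 are near-identical copies, and their coding sequences are shown because reads from them are the hardest to assign. Both have 201 coding bases, of which 191 match, and the longest identical run is 58 bases. The 10 differing bases are in capitals (strand +, TAIR10.1, RefSeq annotation).
KIN1: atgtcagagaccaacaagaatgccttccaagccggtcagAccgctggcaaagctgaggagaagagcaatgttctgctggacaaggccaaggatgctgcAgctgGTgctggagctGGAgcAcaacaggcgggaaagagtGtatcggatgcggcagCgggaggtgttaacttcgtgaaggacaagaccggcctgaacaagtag
KIN2: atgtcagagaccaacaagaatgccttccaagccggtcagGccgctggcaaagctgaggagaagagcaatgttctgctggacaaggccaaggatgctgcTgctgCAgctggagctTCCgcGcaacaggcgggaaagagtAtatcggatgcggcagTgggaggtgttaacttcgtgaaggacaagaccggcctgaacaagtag
How the authors' counting treated reads that match both copies is not given in the sources used here, so KIN1 and KIN2 values are uncertain one against the other. COR15B overlaps the annotated gene AT2G42520, and with no strand setting given the overlap can add reads to either. The other members overlap no annotated gene.

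The CRT/DRE core CCGAC was searched on both strands of the DNA around the start of each gene, since it is the element that the CBF factors bind. In 250 bases before to 50 after the annotated start it was found in 3 of 9 members (COR15A, RD29A and LTI30), against 15.1% of 27444 protein-coding genes. The annotated starts lie 182 to 1209 genomic bases before the start codons, so 500 bases before the start codon were searched as well, a window chosen after the first counts were seen. There CCGAC was found in 8 of 9 members, against 23.4% of all genes, and ERD14 was the member without it. This window can reach into the annotated gene, and for COR15B and COR47 it lies wholly within it. The match nearest to the start codon in that window is shown for each, read along the strand of the motif, with 10 bases on either side and the core in capitals (RefSeq genome, TAIR10.1).
COR15A: aatttcatggCCGACctgctttttt
COR15B: aacttgatggCCGACctcttttttc
KIN1: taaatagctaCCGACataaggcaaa
KIN2: taaaaagctaCCGACataaggcaaa
RD29A: aaagatcaagCCGACacagacacgc
COR47: tattcatctaCCGACttcaagaaat
ERD10: caccgaccgaCCGACgtaaaagaaa
LTI30: tacgtgttggCCGACatcgtaaaag
In the same order these stretches lie at COR15A chr2:17712218-17712242 (strand -, 264 bases), COR15B chr2:17710124-17710148 (strand -, 263 bases), KIN1 chr5:5209804-5209828 (strand +, 176 bases), KIN2 chr5:5211771-5211795 (strand +, 183 bases), RD29A chr5:21240711-21240735 (strand +, 206 bases), COR47 chr1:7085918-7085942 (strand -, 266 bases), ERD10 chr1:7089363-7089387 (strand -, 268 bases) and LTI30 chr3:18940624-18940648 (strand -, 189 bases), with the distance from the core's centre to the start codon in brackets. The ABRE core ACGTG was found in 5 of 9 members in the window around the annotated start (26.7% of all genes) and in 8 of 9 in the window before the start codon (34.9%), where ERD10 was the member without it. The evening element AAAATATCT, a clock-linked motif, was found in 1 of 9 (2.82%) and in 4 of 9 (4.02%), the 4 being COR15A, COR15B, KIN2 and LTI30. Of the CCGAC cores shown, that of LTI30 alone lies before the annotated start, and the others lie within the annotated gene. A match of letters is not evidence of binding.

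Library totals ran from 9461056 to 18125373 counts. Levels are in CPM (a gene's share of its library's counts, times 1000000), without further scaling, and changes are log2 ratios from an edgeR quasi-likelihood fit of all 96 libraries, which also scales by composition (TMM) so that a change can differ from the ratio of CPM means, with their standard error (SE) and a p-value adjusted by Benjamini and Hochberg over the 19498 genes tested; a change is called at an adjusted p under 0.05. All 9 members passed the filter on low counts. Library codes form 4 runs of 24 consecutive numbers, called code sets here, each with 2 libraries of every group. Code set 1 differed from the mean of the other 3 in 13386 genes (68.7% of those tested), among them COR15B, which was lower in it by a log2 change of -0.68, and KIN1, COR47 and ERD14, which were higher in it by 0.85, 0.47 and 0.53. Values without code set 1 are therefore given where they change a call. Leaf identity was checked on marker genes. The 4 mesophyll markers had counts in every library, and no seed or flower marker passed 2.07 CPM. Of the 2 root markers, RHD6, a root hair gene, was at 0 in all 96 libraries, and PYK10, a root beta-glucosidase, was at 0 in 39 and reached 44.8 CPM. Its highest plant was at 0.867 CPM over the high-light groups and at 35.9 CPM over the mid-light groups, against 44.8 CPM over the low-light groups, while every group's median was under 1 CPM; its part in the results was not tested. The summed mesophyll level also moved with the groups, with a lowest, median and highest value of 9563, 12170 and 15887 CPM at high light and 2 mM, against 6713, 21215 and 28181 CPM at low light and 2 mM. By median it was 28582 CPM at high light and 20 mM, 28978 CPM at mid light and 20 mM, against 9218 CPM at mid light and 2 mM, and 27397 CPM at low light and 20 mM. Summed guard cell markers ran from 52.5 to 254 CPM and vascular markers from 139.6 to 440.1 CPM over the libraries. Its part in the results was not tested. In whole leaf discs, fewer cells of a type and less RNA per cell cannot be told apart.

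Together the 9 genes took 0.361% of all counts, with 0.105% to 1.14% in single libraries. Per kilobase of exon, KIN2 was highest, with a mean level over 96 libraries of 928 CPM per kb, followed by ERD14 at 594, ERD10 at 419.9 and COR15A at 398 CPM per kb. COR47 had a mean level of 179.7, RD29A of 126, COR15B of 68.8, LTI30 of 36.02 and KIN1 of 17.8 CPM per kb. The near-identical pair thus stood at the opposite ends of the order. Single plants differed widely. KIN1 spanned 0.561 to 64.1 CPM over the libraries, a ratio of 114, and its lowest library held 7 counts. ERD14 had the narrowest span, 260.1 to 2900.2 CPM, a ratio of 11.2.

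**Figure D1:**
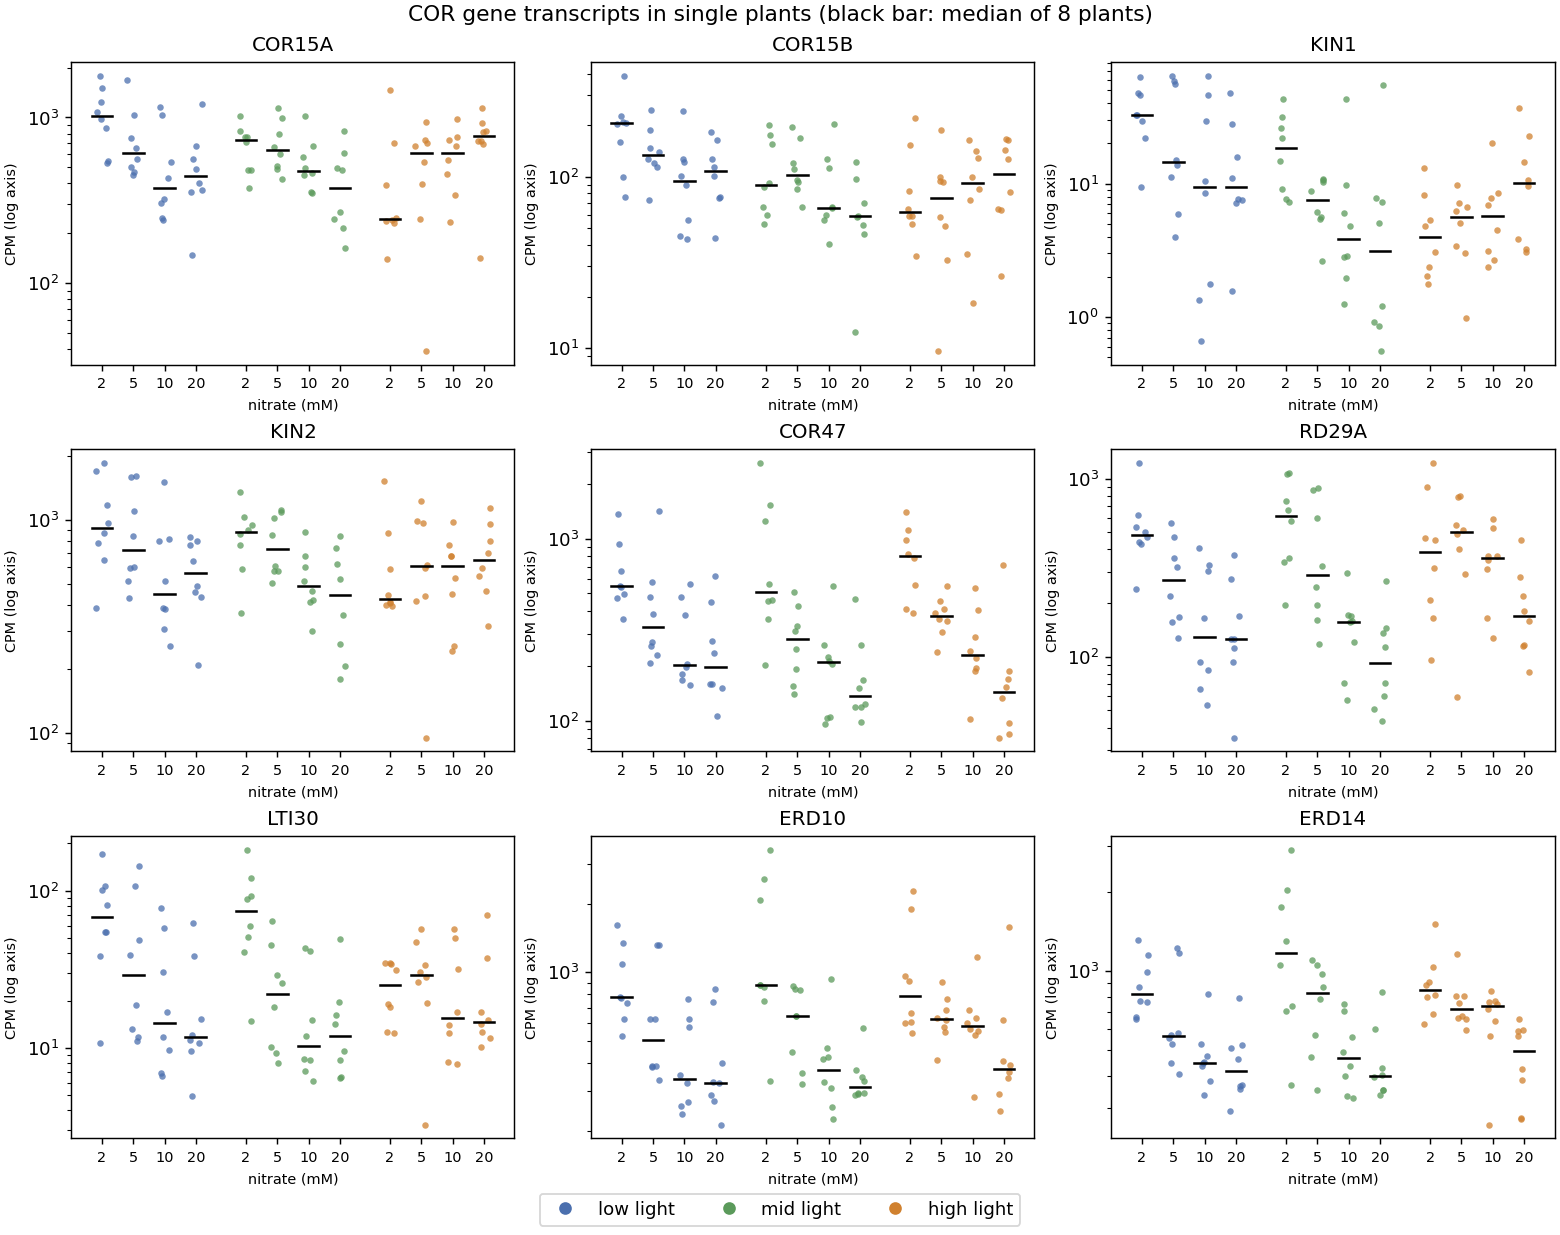
CPM (log axis) of each COR gene in every plant, by nitrate dose (mM) and light level, with black bars for the median of 8 plants. All 9 genes have lower medians at 20 mM than at 2 mM in low and in mid light, and at 2 mM 7 of 8 KIN1 points in high light lie below every point in low light.

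High light, averaged over the 4 doses, lowered COR15A, COR15B, KIN1, KIN2 and LTI30, and raised none (32 plants per light level). The 5 of 9 members called lower stand beside 28.7% of all tested genes called lower in this comparison, and the members' median log2 change was -0.49, against 0.04 over all genes. KIN1 changed most (-1.99 ± 0.35, adjusted p = 1.43e-06; changes are log2 ± SE). LTI30 (-0.78 ± 0.27, adjusted p = 0.0098) and COR15B (-0.76 ± 0.20, adjusted p = 8.39e-04) followed. COR15A (-0.49 ± 0.20, adjusted p = 0.0298) and KIN2 (-0.49 ± 0.18, adjusted p = 0.0144) changed less. The 3 dehydrins COR47 (-0.36 ± 0.20), ERD10 (0.02 ± 0.17) and ERD14 (-0.07 ± 0.12) did not pass, nor did RD29A (0.20 ± 0.22). Without code set 1, KIN1 (-1.73, adjusted p = 2.42e-05) and COR15B (-0.55, adjusted p = 0.0168) stayed called, and COR15A (-0.14), KIN2 (-0.13) and LTI30 (-0.26) did not. LTI30 was not called in limma-voom either (-0.59). The COR15A call was also lost when low light 5 mM replicate 2 (-0.43), low light 10 mM replicate 1 (-0.40) or low light 20 mM replicate 1 (-0.42) was left out. COR47 gained a call (-0.52, adjusted p = 0.0163) without high light 20 mM replicate 8.

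Mid against low light gave 2 members called lower, KIN1 (-1.25 ± 0.35, adjusted p = 0.00612) and COR15B (-0.59 ± 0.20, adjusted p = 0.0286), beside 9.57% of tested genes called lower. The COR15B call was lost without code set 1 (-0.46) and without low light 10 mM replicate 6 (-0.52). Between high and mid light 0 of 9 members passed in edgeR, where 38.7% of all genes were called. KIN1 was the 1 member with an unadjusted p under 0.05 there (-0.74 ± 0.35, adjusted p = 0.0816), and DESeq2 called it lower (-0.76). KIN1 was also called by edgeR without high light 20 mM replicate 2 (-0.85), high light 10 mM replicate 3 (-0.85) or high light 2 mM replicate 8 (-0.83). RD29A was called higher without code set 1 (0.57 against 0.36 with all libraries).

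**Figure D2:**
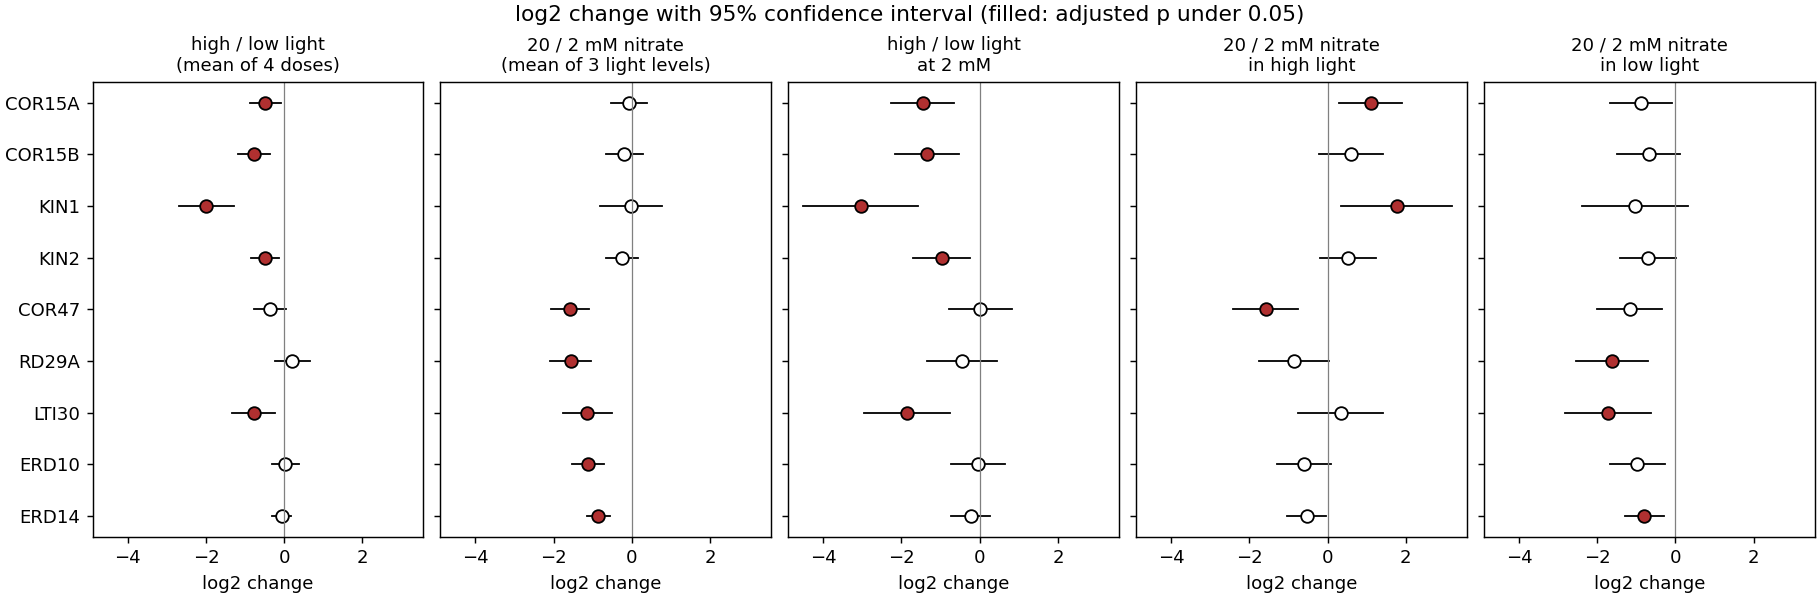
log2 change of each COR gene (x axis) with its 95% confidence interval in 5 comparisons, filled where the adjusted p is under 0.05. The 5 genes that fell with light and the 5 that fell with nitrate share 1 member, LTI30.

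Dose by dose, most member calls fell at 2 mM nitrate. Over all tested genes too, fewer were called lower at 10 and 20 mM than at 2 and 5 mM. The member counts at 5 and 10 mM were near the shares of all genes. At 2 mM, COR15A, COR15B, KIN1, KIN2 and LTI30 were lower in high light, 5 of 9 beside 20.9% of all tested genes called lower. KIN1 had a lowest, median and highest level of 1.78, 3.96 and 13.1 CPM in high light, against 9.51, 32.7 and 62.5 CPM in low light. Of the 8 high-light plants 7 lay below every low-light plant, and the groups overlapped through 1 plant (-3.04 ± 0.74, adjusted p = 7.22e-04). COR15A stood at 140.3, 244 and 1475 CPM in high light, against 530.3, 1026 and 1785 CPM in low light (-1.46 ± 0.41, adjusted p = 0.00313). Here 6 of 8 high-light plants lay below every low-light plant, while replicate 8 of the high-light group was the highest of its group at 1475 CPM. COR15B stood at 34.5, 62.0 and 222 CPM in high light, against 76.0, 206 and 389.6 CPM in low light (-1.36 ± 0.41, adjusted p = 0.00622), and 5 of 8 high-light plants lay below every low-light plant.

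LTI30, a dehydrin that binds membranes, had 12.4, 25.2 and 34.9 CPM at 2 mM in high light, against 10.7, 67.7 and 171 CPM in low light (-1.85 ± 0.55, adjusted p = 0.00552). All 8 high-light plants lay under the low-light median, and the ranges overlapped through a single low plant in low light. KIN2 had 395, 428 and 1521 CPM in high light, against 388, 914 and 1851 CPM in low light (-0.98 ± 0.36, adjusted p = 0.0244), and 7 of 8 high-light plants lay below the low-light median. The KIN2 call was lost without code set 1 (-0.78) and without low light 2 mM replicate 1 (-0.80), low light 2 mM replicate 5 (-0.87) or high light 2 mM replicate 6 (-0.89). COR47 (0.02, 95% interval -0.79 to 0.83), ERD10 (-0.04, 95% interval -0.73 to 0.65), ERD14 (-0.23, 95% interval -0.73 to 0.27) and RD29A (-0.45, 95% interval -1.34 to 0.44) did not pass at this dose.

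At 5 mM, KIN1 (-2.77 ± 0.73, adjusted p = 0.00142) and COR15B (-1.21 ± 0.41, adjusted p = 0.0128) were lower in high light, 2 of 9 beside 21.6% of all genes. Their mean levels were 5.30 ± 2.77 CPM in high and 28.4 ± 25.8 CPM in low light for KIN1, and 78.5 ± 54.9 CPM in high and 144 ± 52.0 CPM in low light for COR15B (SD, n = 8 each). The COR15B call was lost without code set 1 (-0.83). COR15A (-0.85 ± 0.40, adjusted p = 0.0776) and KIN2 (-0.79 ± 0.36, adjusted p = 0.0664) missed the threshold with all libraries. COR15A passed without high light 5 mM replicate 8 (-1.02) and in limma-voom (-1.15), and KIN2 without low light 5 mM replicate 4 (-0.89), high light 5 mM replicate 6 (-0.92) or replicate 8 (-0.98), and in DESeq2 (-0.83) and limma-voom (-0.95). At 10 mM, KIN1 alone was called lower (-1.89 ± 0.71, adjusted p = 0.0408), 1 of 9 beside 10.8% of all genes. That call was lost without code set 1 (-1.45) and when any 1 of 10 single libraries was left out: replicate 1, 6 or 8 of the low-light group, or replicate 1, 2, 4, 5, 6, 7 or 8 of the high-light group (-1.94 to -1.26). It was lost too in limma-voom (-0.70, adjusted p = 0.522), with code set as a term of the fit (-1.58, adjusted p = 0.0629) and with no filter on low counts (-1.87, adjusted p = 0.0585).

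At 20 mM no member was called between high and low light, where 3.78% of all genes were, and 0 had an unadjusted p under 0.05 in edgeR; DESeq2 and limma-voom also called 0. COR15A averaged 748 ± 285 CPM in high and 525 ± 318 CPM in low light (SD, n = 8 each), a change of 0.53, 95% interval -0.27 to 1.33. KIN1 had a lowest, median and highest level of 3.08, 10.1 and 36.9 CPM in high light, against 1.58, 9.37 and 47.3 CPM in low light, a change of -0.25, 95% interval -1.61 to 1.11.

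Nitrate at 20 against 2 mM, averaged over the light levels, lowered all 4 dehydrins of the set and RD29A, and raised none (24 plants per dose). The 5 of 9 members called lower stand beside 34.6% of all tested genes called lower, and the members' median log2 change was -0.86, against -0.06 over all genes. COR47 (-1.59 ± 0.24, adjusted p = 4.51e-08) and RD29A (-1.56 ± 0.26, adjusted p = 5.35e-07) changed most. LTI30 (-1.14 ± 0.32, adjusted p = 0.00127), ERD10 (-1.12 ± 0.20, adjusted p = 2.16e-06) and ERD14 (-0.86 ± 0.15, adjusted p = 5.49e-07) followed. Leaving out any single library lost none of these 5 calls, and leaving out code set 1 lost none. COR15A (-0.07, 95% interval -0.52 to 0.39), COR15B (-0.19, 95% interval -0.66 to 0.27), KIN1 (-0.02, 95% interval -0.83 to 0.78) and KIN2 (-0.25, 95% interval -0.66 to 0.16) did not pass. Without code set 1, COR15A (-0.50), KIN1 (-0.96) and KIN2 (-0.46) were called lower as well.

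In mid light the same 5 genes were lower at 20 mM, beside 24.7% of all genes called lower, with wide ranges at 2 mM and a change nearest to 0 in code set 1 for each. COR47 had a lowest, median and highest level of 98.6, 137 and 469 CPM at 20 mM, against 202, 510.0 and 2604 CPM at 2 mM (-2.02 ± 0.42, adjusted p = 1.06e-04). All 8 plants at 20 mM lay under the 2 mM median. RD29A had 43.4, 92.7 and 267 CPM at 20 mM, against 196, 619.9 and 1069.8 CPM at 2 mM (-2.20 ± 0.47, adjusted p = 1.22e-04), and 7 of 8 plants at 20 mM lay below every plant at 2 mM. ERD10 had 289, 313 and 569.7 CPM at 20 mM, against 333, 881 and 3468 CPM at 2 mM (-1.79 ± 0.36, adjusted p = 5.70e-05). ERD14 had 339, 399 and 830.0 CPM at 20 mM, against 368, 1176 and 2900.2 CPM at 2 mM (-1.24 ± 0.25, adjusted p = 7.38e-05). For both genes every 20 mM plant was under the 2 mM median, and 5 of 8 ERD10 and 3 of 8 ERD14 values at 20 mM lay below every plant at 2 mM. LTI30 changed by -2.01 ± 0.56, adjusted p = 0.00243. Without code set 1 COR15A (-0.99), KIN1 (-2.82) and KIN2 (-0.99) joined them. KIN1, at -0.80 with all libraries, was also called without mid light 20 mM replicate 1, by -2.27 (adjusted p = 0.0063): that plant stood at 54.6 CPM and the next in its group at 7.86 CPM. It was called in limma-voom as well (-2.02).

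In low light 3 of 9 members were lower at 20 than at 2 mM, beside 5.15% of all genes: RD29A (-1.62 ± 0.46, adjusted p = 0.0169), LTI30 (-1.73 ± 0.55, adjusted p = 0.0361) and ERD14 (-0.79 ± 0.25, adjusted p = 0.0345). ERD14 had 294, 415 and 793 CPM at 20 mM, against 658, 819 and 1309 CPM at 2 mM, and 7 of 8 plants at 20 mM lay below every plant at 2 mM. RD29A had 35.1, 126 and 373 CPM at 20 mM, against 241, 485 and 1227 CPM at 2 mM, with 6 of 8 plants below. COR47 (-1.17 ± 0.41, adjusted p = 0.0586) and ERD10 (-0.97 ± 0.35, adjusted p = 0.0644) missed the threshold and passed in DESeq2 and limma-voom. COR15A, at -0.88 (adjusted p = 0.15) with all libraries, was called lower without code set 1 (-1.18). With code set as a term of the fit COR47 (-1.18) and ERD10 (-0.96) also passed, 5 of 9 in all. Without replicate number 5 in every group all 3 calls were lost (RD29A -1.23, LTI30 -1.32, ERD14 -0.71), and calls in either direction over all tested genes fell to 18, against 1695 with all libraries. Single libraries decided several of these calls too. RD29A lost its call without replicate 5 at 2 mM (-1.38) or at 20 mM (-1.47), ERD14 without any 1 of 7 libraries (replicates 1, 2 and 5 at 2 mM, replicates 3, 5, 7 and 8 at 20 mM; -0.79 to -0.68), and LTI30 without any 1 of 10 (replicates 1, 2, 5 and 8 at 2 mM, replicates 2, 3, 4, 5, 7 and 8 at 20 mM; -1.72 to -1.48). LTI30 also missed it with no filter on low counts (-1.73, adjusted p = 0.0513). COR47 and ERD10 gained calls without replicate 1 or 6 at 20 mM or replicate 4 or 6 at 2 mM (COR47 -1.45 to -1.21, ERD10 -1.17 to -1.02).

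In high light members were called in both directions, in numbers no higher than the shares of all genes given below. COR47 was lower at 20 mM (-1.58 ± 0.42, adjusted p = 0.00129), with 80.7, 144 and 713 CPM at 20 mM, against 389, 804 and 1403 CPM at 2 mM, and 7 of 8 plants at 20 mM lay below every plant at 2 mM. COR15A (1.11 ± 0.40, adjusted p = 0.0183) and KIN1 (1.76 ± 0.71, adjusted p = 0.0325) were higher at 20 mM. Thus 2 of 9 members were called higher beside 24.7% of all genes, and 1 of 9 lower beside 26.1%. COR15A had 142, 771 and 1137 CPM at 20 mM, against 140.3, 244 and 1475 CPM at 2 mM, and 7 of 8 plants at 20 mM lay above the 2 mM median. KIN1 had 3.08, 10.1 and 36.9 CPM at 20 mM, against 1.78, 3.96 and 13.1 CPM at 2 mM, and 3 of 8 plants lay above every plant at 2 mM. Both increases lost their call without code set 1 (COR15A 0.68, KIN1 1.34). No single library ended the COR15A call, but it was lost when all plants of replicate number 2, 3, 6 or 7 were left out (0.88, 1.04, 1.03 and 1.01). The KIN1 call was lost without number 2, 6 or 7 (1.33, 1.74 and 1.66). KIN1 lost it also without replicate 2 or 8 at 20 mM or replicate 3, 4, 6 or 7 at 2 mM (1.32 to 1.68), and in limma-voom (1.52). COR15B (0.60, 95% interval -0.21 to 1.41) and KIN2 (0.53, 95% interval -0.19 to 1.24) passed when high light 2 mM replicate 8 was left out (COR15B 0.95, KIN2 0.87). ERD10 (-0.60), RD29A (-0.86) and ERD14 (-0.53) were called lower without high light 20 mM replicate 8 (ERD10 -1.08, RD29A -1.13, ERD14 -0.61). With all libraries, 7 of 8 ERD14 and 6 of 8 ERD10 values at 20 mM lay below every plant at 2 mM. For RD29A 1 of 8 did, and 7 of 8 lay below the 2 mM median. ERD14 was also called without high light 2 mM replicate 6 (-0.60), and with code set as a term of the fit (-0.50), and RD29A without code set 1 (-1.22). LTI30, with 23.4 ± 20.6 CPM at 20 mM against 24.7 ± 10.1 CPM at 2 mM (SD over 8 plants each), changed by 0.33, 95% interval -0.74 to 1.41. By median LTI30 stood at 14.6 CPM at 20 mM and 25.2 CPM at 2 mM, and 6 of 8 plants at 20 mM lay below the 2 mM median. Its change ran from -0.14 to 0.44 with single libraries left out.

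**Figure D3:**
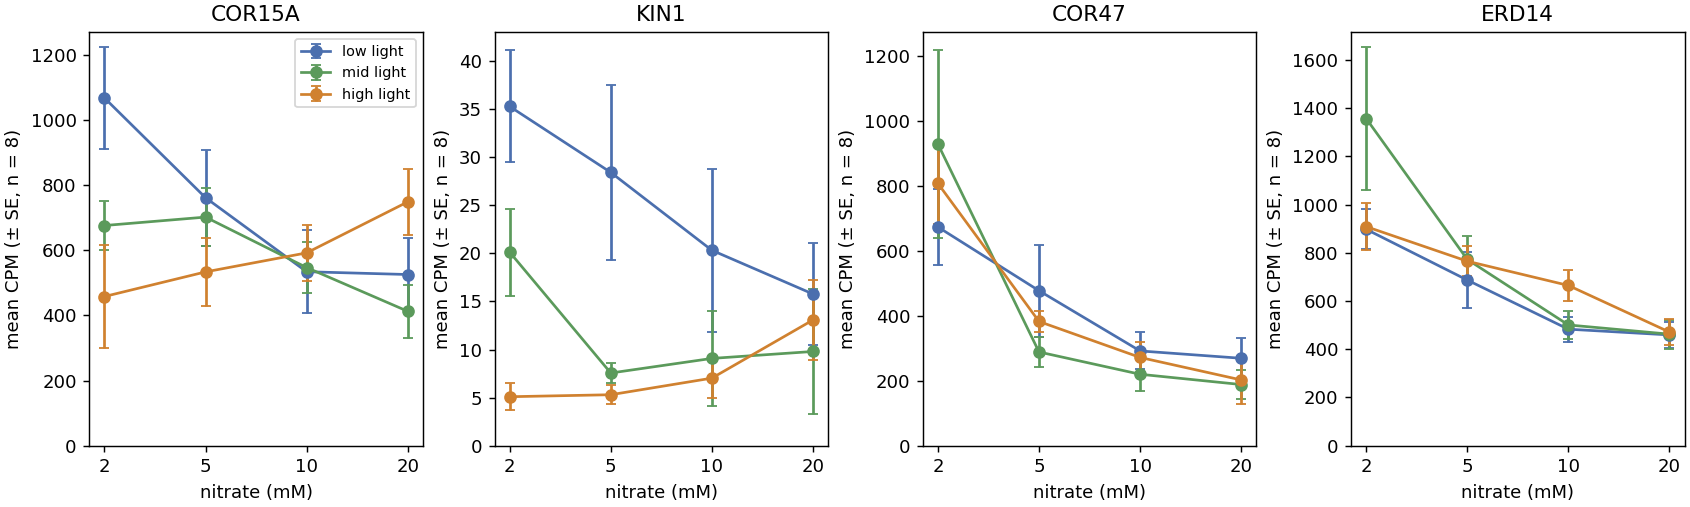
Mean CPM (± SE, n = 8 plants) of COR15A, KIN1, COR47 and ERD14 against nitrate dose (mM, doses evenly spaced) in the 3 light levels. COR15A averages 458 CPM at 2 mM and 748 CPM at 20 mM in high light, while in low light it averages 1067 and 525 CPM at these doses.

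The nitrate change of COR15A differed between high and low light. The difference of the 20 against 2 mM change, high minus low light, was 1.99 ± 0.57, adjusted p = 0.0229, 1 of 9 members called higher beside 4.39% of all genes. It kept its sign within each of the 4 code sets (3.09, 1.59, 3.18 and 1.22 in sets 1 to 4), it was called without code set 1, and no single library ended the call. It was lost when all plants of replicate number 3, 5, 6 or 7 were left out (1.91, 1.90, 1.96 and 1.85). KIN1 (2.79 ± 0.99, adjusted p = 0.0731), LTI30 (2.06 ± 0.77, adjusted p = 0.0928), KIN2 (1.23 ± 0.51, adjusted p = 0.134) and COR15B (1.29 ± 0.58, adjusted p = 0.17) had positive differences that missed the threshold. Without code set 1 KIN1 (2.75) and LTI30 (2.25) passed, and KIN1 passed in DESeq2 (2.81) and with code set as a term of the fit (2.77). KIN1 passed too without low light 2 mM replicate 2 (2.90), low light 20 mM replicate 1 (3.25), high light 20 mM replicate 4 (2.95) or high light 2 mM replicate 8 (3.18), LTI30 without low light 20 mM replicate 1 (2.54) and KIN2 without high light 2 mM replicate 8 (1.58). RD29A (0.76 ± 0.63), ERD10 (0.37 ± 0.49), ERD14 (0.26 ± 0.35) and COR47 (-0.42 ± 0.58) did not pass. In edgeR's single test of all 6 interaction terms 0 of 9 members were called, where 12.7% of all genes were. Its unadjusted p was under 0.05 for COR15A (adjusted p = 0.0805) and LTI30 (adjusted p = 0.155), and DESeq2 and limma-voom called 1 member each. The edgeR test called 1 member without code set 1 and 2 with code set as a term of the fit, where calls over all tested genes were 4168 and 4899, against 2480.

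Within the code sets the members did not all keep their direction. For high against low light, KIN1 changed by -2.58, -1.12, -1.69 and -1.88 in sets 1 to 4 and COR15B by -2.01, -0.79, -0.60 and -0.27, lower in all 4. COR15A changed by -1.88, -0.36, -0.22 and 0.18, KIN2 by -1.75, -0.20, -0.16 and 0.04 and LTI30 by -2.03, 0.04, -0.50 and -0.17. For these 3 genes the change in set 1 was the largest of the 4 and 1 of the other sets had the opposite sign. For 20 against 2 mM nitrate, COR47 changed by -1.10, -2.03, -2.43 and -0.79, ERD10 by -0.75, -1.12, -1.94 and -0.43 and ERD14 by -0.57, -1.01, -1.26 and -0.38, lower in all 4 sets. RD29A changed by 0.03, -1.74, -2.78 and -1.40 and LTI30 by -0.15, -1.63, -2.26 and -0.86. The 4 members without a nitrate call were higher in set 1 and lower in the other 3 sets: the change was 1.35, -0.18, -0.70 and -0.58 for COR15A, 0.49, -0.20, -0.47 and -0.28 for COR15B, 1.49, -1.65, -1.49 and -0.36 for KIN1 and 0.57, -0.49, -0.59 and -0.39 for KIN2. For nitrate in mid light, COR47 changed by -0.02, -3.78, -2.31 and -0.95, LTI30 by 0.05, -3.73, -2.56 and -1.95, RD29A by -0.30, -3.62, -2.84 and -2.04, ERD10 by -0.48, -2.73, -2.13 and -0.72 and ERD14 by -0.24, -2.24, -1.45 and -0.35, so that set 1 was the nearest to 0 for each of them. The labels do not say what, if anything, separates the code sets.

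**Figure D4:**
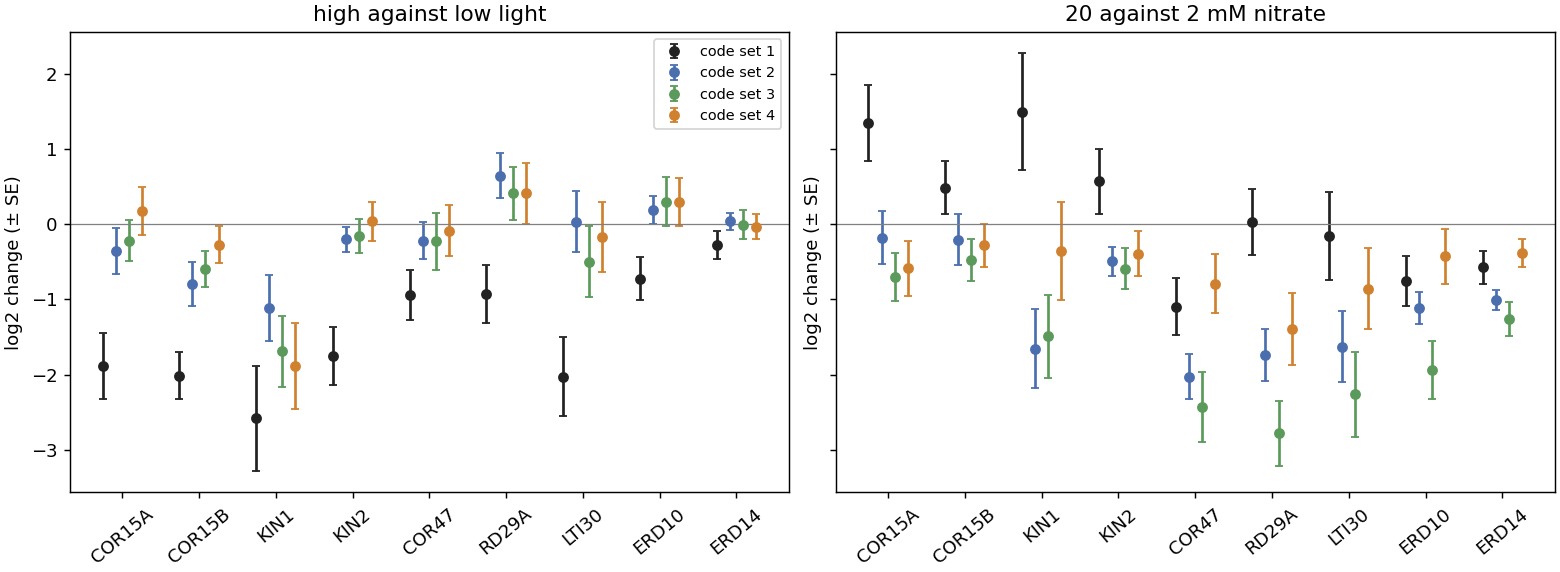
log2 change (± SE) of each COR gene in the comparison of high with low light and in that of 20 with 2 mM nitrate, fitted within each code set of 24 libraries. KIN1 is lower in high light in all 4 sets, and COR47, ERD10 and ERD14 are lower at 20 mM in all 4, while COR15A, COR15B, KIN1 and KIN2 are higher at 20 mM in set 1 and lower in the other 3.

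Plants of the same group that were high for 1 COR gene tended to be high for the others. Over 96 plants, with each value taken as log2(CPM + 1) minus its group mean, Pearson r was positive in 35 of 36 pairs of members (median 0.66, range -0.18 to 0.89), and Spearman rho had a median of 0.67. The median r of the members with all tested genes was 0.04, and the median of its absolute value was 0.19. COR47 and ERD10 were the closest pair (r = 0.89, rho = 0.87), followed by COR15A and KIN2 (r = 0.85, rho = 0.82) and by COR47 and ERD14 (r = 0.84, rho = 0.83). Each of these had a permutation p of 1e-05, the smallest that 100000 permutations within groups can give (1.2e-05 adjusted over 36 pairs), and without the 2 plants farthest from the median of the first gene r was 0.88, 0.83 and 0.84. Their r ran from 0.79 to 0.95 within the code sets. The permutations exchanged plants across code sets, so the permutation p-values also take up differences between the sets. COR15B and ERD14 were the 1 pair below 0 (r = -0.18, rho = -0.16, permutation p = 0.0859, adjusted 0.0883). Within the code sets that pair had r of 0.47, 0.10, 0.39 and 0.15, and as given above COR15B was lower and ERD14 higher in code set 1. All genes of a library share its depth and scaling.

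**Figure D5:**
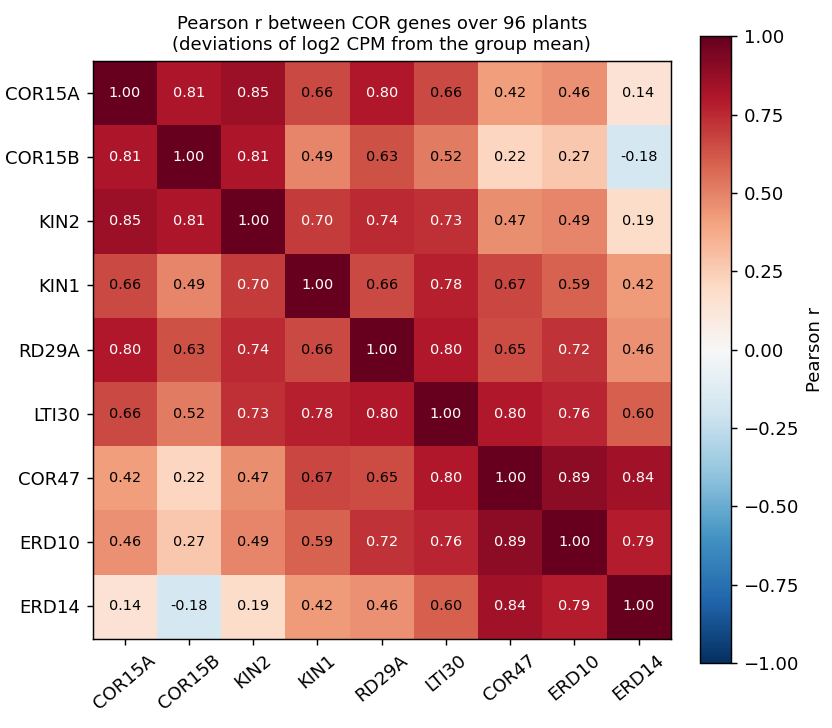
Pearson r between the 9 COR genes over 96 plants, after taking each group's mean from log2(CPM + 1). COR15A, COR15B and KIN2 are close to each other (0.81 to 0.85), as are COR47, ERD10 and ERD14 (0.79 to 0.89), and RD29A and LTI30 have r of 0.46 to 0.80 with all 6.

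Over the 12 group means, given as a description, the members fell into patterns of unequal likeness. ERD10 and ERD14 had r = 0.98 and RD29A and ERD14 0.94, KIN1 and COR15B had 0.90, and COR15A and COR47 had 0.19. COR15A was highest by median at low light and 2 mM (1026 CPM), then at high light and 20 mM (771 CPM), and lowest at high light and 2 mM (244 CPM). COR47 was highest at high light and 2 mM (804 CPM) and lowest at mid light and 20 mM (137 CPM), and its 3 highest groups were the 3 groups at 2 mM. The ranges of the 8 plants overlapped in every pair of groups set side by side above. Among 14474 tested genes outside the set with a mean of at least 5 CPM, those most like the mean of the 9 members over the 12 groups were AFP1 (r = 0.96), ABF3 (0.95), FRS2 (0.93), AT1G10090 (0.92) and AT2G44430 (0.92). Those most like COR15A were AT2G22080 (0.88), ATCG00280 (0.88), SEP4 (0.88), AT1G16850 (0.86) and SULTR3;1 (0.86).

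The cold activators of the family were at low levels. CBF1, CBF2 and CBF3, the AP2 factors that bind the CRT/DRE, had group means of 0.594 to 4.91, 0.755 to 7.65 and 3.15 to 7.23 CPM. None was called in either averaged comparison. For high against low light the fitted change was -0.92 ± 0.47 for CBF1, -0.79 ± 0.39 for CBF2 and -0.33 ± 0.27 for CBF3. For nitrate it was -0.61 ± 0.54, -0.21 ± 0.44 and -0.49 ± 0.31 in the same order. CBF1 was lower at 20 mM in mid light (-2.35 ± 0.97, adjusted p = 0.0399). ICE1, the bHLH factor upstream of CBF3, had group means of 37.6 to 49.9 CPM and was called in neither (-0.01 ± 0.06 for light, 0.15 ± 0.07 for nitrate). Over all tested genes, 33.8% were called higher and 28.7% lower in high light, and 28.7% higher and 34.6% lower at 20 mM, and the counts of the lists below stand beside these shares. Of 23 CBF pathway regulators 21 were tested, and 7 were higher and 5 lower in high light, while 3 were higher and 7 lower at 20 mM. CAMTA3, a calmodulin-binding activator, was higher in high light (0.38 ± 0.08, adjusted p = 1.57e-05), while CAMTA1 (-0.54) and CAMTA2 (-0.28) were lower. RAV1 was higher by 1.11. At 20 mM the kinase gene OST1 (-0.62 ± 0.08, adjusted p = 6.01e-10), EIN3 (-0.50) and CAMTA3 (-0.51) were lower and ICE2 (0.75) higher.

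Of the other genes of the CBF regulon all 15 were tested, and against the same shares there were 5 higher and 6 lower in high light and 4 higher and 7 lower at 20 mM; their median change was -0.02 for light and -0.36 for nitrate. The dehydration gene ERD7 (-1.79 ± 0.34, adjusted p = 4.43e-06), LEA14, a late embryogenesis protein (-1.37 ± 0.24, adjusted p = 7.82e-07), and COR413IM2 (-0.49) were lower at 20 mM. ERD7 averaged 67.7 ± 56.9 CPM in mid light at 20 mM, against 759 ± 920.1 CPM in mid light at 2 mM (SD, n = 8 each). GRP2, an RNA-binding cold shock protein, was lower in high light (-0.92 ± 0.08, adjusted p = 1.37e-17) and higher at 20 mM (0.63). RCI2B, a small membrane protein (-3.07 ± 0.28, adjusted p = 7.01e-16), and P5CS1, which makes proline (-2.43 ± 0.28, adjusted p = 7.50e-12), were lower in high light. BAM3, a starch-degrading beta-amylase, was higher in high light (1.41 ± 0.18, adjusted p = 1.25e-10). Of the 6 other dehydrins 3 were tested. HIRD11 averaged 995 ± 214 CPM at 20 mM and 1256 ± 357 CPM at 2 mM in high light and was slightly lower at 20 mM over all light levels (-0.22 ± 0.10, adjusted p = 0.041). RAB18, the ABA-responsive dehydrin, had group means of 24.2 to 52.4 CPM and was not called (light -0.03 ± 0.13, nitrate -0.24 ± 0.15). The third, AT2G21490, stayed under 1 CPM in every group mean, and was higher in high light (1.68) and lower at 20 mM (-3.24).

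Of 29 genes of the ABA pathway 27 were tested, with 8 higher and 5 lower in high light, and 1 higher and 11 lower at 20 mM (median -0.40), where 28.7% of all tested genes were higher and 34.6% lower. RD29B, the ABA-responsive neighbour of RD29A, stayed under 1 CPM in every group mean and was not tested. The ABA catabolic gene CYP707A2 was higher in high light (2.83 ± 0.33, adjusted p = 1.50e-11) and lower at 20 mM (-2.18), and LTP4, a lipid transfer protein, was called higher in high light, where its group means were 0.761 to 2.30 CPM, against at most 0.0524 CPM in low light, with most low-light libraries at 0 (fitted change 5.46 ± 0.72, adjusted p = 1.02e-09, which depends on the prior count). The biosynthetic gene NCED3 was lower in high light (-1.73 ± 0.34, adjusted p = 1.09e-05), as was the phosphatase gene HAI1 (-1.67). The bZIP genes ABI5 (-2.77 ± 0.36, adjusted p = 5.98e-10) and ABF1 (-0.55) and the phosphatase gene ABI2 (-0.70) were lower at 20 mM. Of 9 clock and light inputs to the CBF genes, 4 were higher and 2 lower in high light, and 1 was higher and 3 lower at 20 mM, the share lower being close to the 34.6% of all genes. PIF4 was lower in high light (-0.996 ± 0.11, adjusted p = 6.18e-12) and higher at 20 mM (0.65), and PIF7 was lower in high light (-0.48). GI was higher in high light (0.76) and lower at 20 mM (-0.71), PRR5 was higher in high light (1.54), and PRR7 (-0.20) and LHY (-1.21) were lower at 20 mM.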

How the data were processed

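Leaf RNA of 96 plants was sequenced, and each library's group and replicate number were read from its sample title. The deposited values are whole-number read counts per gene, per the file's values. Libraries were made with a Kapa stranded mRNA kit, per the labels' protocols, and the authors used STAR 2.5.3a, the genome build TAIR10 and featureCounts, per the submitters' processing notes. The strand setting is not given in the sources used here, nor are the version of featureCounts, its treatment of multi-mapping reads and the annotation release, so near-identical and overlapping genes are uncertain.

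Counts were fitted with edgeR 4.0.16 in R 4.3.3 (robust quasi-likelihood test, TMM scaling, filterByExpr by group), with 12 group means and 84 residual degrees of freedom. All 19498 tested genes of 28025 with any count entered each adjustment. The biological coefficient of variation common to all genes was 0.424; TMM factors were 0.766 to 1.35. An SE is the size of the log2 change divided by the square root of F. DESeq2 1.42.0 and limma-voom (limma 3.58.1), other scaling, no filter, blocks and left-out libraries were alternatives; the fits leaving out single libraries (with the dispersions and scaling factors of all libraries) and those within code sets were added after seeing the data. CPM was computed from the deposited counts and library totals of 9461056 to 18125373 counts, CPM per kb with exon lengths of TAIR10.1. Intervals of log2 changes come from the fit. The p-values rest on the spread between libraries of a group, which holds differences between code sets as well as between plants. The main fit took the 96 libraries as independent, although libraries of a code set moved together. Members and lists were chosen with earlier results of these data known.

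Of 32833 loci 32548 were found by locus tag in the RefSeq annotation of TAIR10.1, which gave names, coordinates and, with its genome, sequences; the labels name TAIR10, and no coordinates of theirs were used. Genes are named by rule: the 9 members, CBF1, CBF2, CBF3, ICE1, RD29B and RAB18, up to 4 members of each list with the smallest p for light and for nitrate, and the 5 most like genes. On simulated counts, changes of 0.5, 1 and 2 (log2) were recovered at 79.1%, 92.5% and 97.0% for high against low light, at 79.1%, 92.5% and 98.5% for 20 against 2 mM, and at 11.9%, 46.3% and 86.4% for the interaction. The simulated counts held no differences between code sets, and 18775 of 19375 genes were left unchanged. The deposited counts differ in both respects, so these rates need not hold for the members. The labels tie no replicate number to a shared batch. Over 528 pairs of libraries with the same number in different groups, r of the deviations from group means had a median of 0.22 (-0.50 to 0.81, 364 over 0.1), against 0.24 for other numbers of the same code set and -0.08 between code sets. Libraries of a code set thus moved together, with no more likeness for a shared number, and as not every pair was over 0.1 the numbers were not taken to pair the samples.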

Additional observations from a re-analysis of the deposited data

Results flagged for a closer look

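Among the sets of 8 plants, 1 for each of the 9 genes in each of the 12 groups, 25 had a plant that stood apart. Its gap to the next, as a share of the range of the set, was over Dixon's 95% critical value. For normally distributed values chance flags about 1 in 20, or 5.4. CPM was used without a log, so the 5.4 need not hold for skewed levels. The genes also correlate between plants, so the 25 are not separate events. In 24 of the 25 the plant was the highest of its group.

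Some plants stood out for several genes. Mid light 20 mM replicate 1 was highest for KIN1 (54.6 CPM), COR47 (469), RD29A (267), LTI30 (49.1) and ERD10 (569.7 CPM). High light 20 mM replicate 8 was highest for COR47 (713), LTI30 (69.8) and ERD10 (1578 CPM). High light 2 mM replicate 8 was highest for COR15A (1475) and KIN2 (1521 CPM), and mid light 10 mM replicate 5 for COR47 (551) and ERD10 (933 CPM). Low light 5 mM replicate 2 was highest for COR15A (1675) and COR47 (1412 CPM), and low light 10 mM replicate 1 for KIN2 (1504) and ERD14 (815 CPM).

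The plants that follow met this measure for 1 gene each. COR15B reached 241 CPM in low light 10 mM replicate 6, and RD29A 1227 CPM in low light 2 mM replicate 5. KIN1 reached 43.1 CPM in mid light 10 mM replicate 7 and 20.2 CPM in high light 10 mM replicate 3. ERD10 reached 1167 CPM in high light 10 mM replicate 5. ERD14 reached 1514 CPM in high light 2 mM replicate 2, 1159.8 CPM in high light 5 mM replicate 2 and 793 CPM in low light 20 mM replicate 1. COR15A was lowest, at 142 CPM, in high light 20 mM replicate 4. Plants could also stand apart over all members, the first 4 of the following without such a gap in any gene. The mean log2 deviation of the 9 genes from the group mean was -1.77 in high light 5 mM replicate 1 (1 of 9 above the mean), and -1.36 in low light 20 mM replicate 5, -1.13 in low light 2 mM replicate 4 and -0.96 in low light 10 mM replicate 4 (0 of 9 above). It was 1.37 in mid light 20 mM replicate 1, 1.31 in low light 5 mM replicate 2, 1.27 in low light 10 mM replicate 1 and 1.23 in low light 20 mM replicate 1 (9 of 9 above in each). These plants stayed in every comparison, and the calls that leaving 1 of them out changes are given with each comparison.

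The 20 against 2 mM change differed between high and low light, in edgeR's test of the difference, for COR15A (1.99 ± 0.57, adjusted p = 0.0229, log2 ± SE). Over all tested genes, 1175 of 19498 were called in this test, in either direction. A similar share was called among the tested genes of the pathway lists, 5 of 74. These were RCI2B (3.61 ± 0.78, adjusted p = 0.0024), RD20 (2.12 ± 0.61, adjusted p = 0.0245), RCI2A (1.66 ± 0.50, adjusted p = 0.0319), PIF4 (1.07 ± 0.32, adjusted p = 0.0302) and CAMTA3 (-0.70 ± 0.22, adjusted p = 0.036). RCI2A, RD20 and the interaction values were singled out after they were seen.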

How the results depend on the processing

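Of 1620 values (9 genes, 12 comparisons, 15 planned settings), 1515 kept their side of the threshold, 58 lost a call, 47 gained one and none turned round while called; 50 values not called in either fit changed sign. Scaling by RLE changed no call. With single libraries left out, 24 of the 32 calls were never lost.

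Counts of members called that moved by over 1.5 times were as follows, and the cause was not tested. Without code set 1, lower calls were 2 in high against low light, 1 in mid against low, 8 for 20 against 2 mM and 8 for it in mid light, 1 at 5 mM and 0 at 10 mM between high and low light, and 2 for 20 against 2 mM in high light, where higher calls were 0; 1 gene was higher in high than in mid light, the interaction gave 3 and any interaction 1. DESeq2 called 1 lower for high against mid light, 5 for 20 against 2 mM in low light, 2 for the interaction and 1 for any interaction. limma-voom called 4 at 5 mM and 0 at 10 mM between high and low light, 5 for 20 against 2 mM in low light, 1 higher in high light, and 1 for any interaction. With no filter on low counts 0 were called at 10 mM. With the replicate block, and likewise with the code set block, 0 were called at 10 mM, 5 for 20 against 2 mM in low light, 2 lower in high light, 2 for the interaction and 2 for any interaction. With the replicate block KIN1 at 10 mM was -1.46 (adjusted p = 0.0963), and KIN1 in mid light was called (-1.62). Numbers 1 and 2 belong to code set 1 in every group, and later numbers follow the sets except for 2 libraries, so the block also takes up code sets. Other counts moved by less: without code set 1, 4 lower for 20 against 2 mM in low light and 4 at 2 mM in high against low light; in limma-voom, 4 lower between high and low light, and 6 in mid light for the nitrate comparison; with the replicate block 6 there; and 3 at 5 mM in DESeq2 and with either block.

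Leaving out a replicate number from all groups gave 2 to 6 lower calls in high against low light, 1 to 2 in mid against low, 0 to 1 in high against mid, 5 in 20 against 2 mM, 4 to 5 at 2 mM, 2 to 4 at 5 mM and 0 to 1 at 10 mM in high against low light. In 20 against 2 mM it gave 0 to 5 lower in low light, 5 to 7 in mid light, and 0 to 2 higher and 1 to 3 lower in high light, 0 to 2 for the interaction and 0 to 2 for any interaction.

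Over all tested genes, with the replicate block, the code set block and without code set 1, calls were 5832, 5915 and 6829 in mid against low light (3854 with all libraries and no block), 1890, 1996 and 2124 in high against low light at 20 mM (737), 2305, 2367 and 3046 for the interaction (1175), and 4610, 4899 and 4168 for any interaction (2480). In 20 against 2 mM in low light the blocks gave 3271 and 3386 (1695), and leaving out replicate 5 gave 18. Left-out replicate numbers gave as few as 1970, 294, 390 and 940 in the first 4 of these, 5012 in high against mid light (7554) and 2955 at 10 mM in high against low light (4604). KIN1, with as few as 7 counts in a library, is the member whose precision depth limits most.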

Other observations

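Outside the set, P5CS1, RCI2B and RD20 shared with COR15A a higher mean at 20 than at 2 mM in high light. These 3 genes were chosen from the pathway lists after their values were seen, and other list genes rose there too. In that comparison 3 CBF pathway regulators were called higher and 4 lower, and 4 other CBF regulon genes higher and 4 lower. ABA pathway genes had 2 higher and 4 lower, clock inputs 1 and 2, and other dehydrins 0 and 1. Over all tested genes 24.7% were called higher and 26.1% lower. In low light, where the COR15A mean was lower at 20 mM, those of P5CS1 and RCI2B were not. P5CS1, the rate-limiting enzyme of proline synthesis, was higher at 20 mM over all light levels (1.67 ± 0.32, adjusted p = 4.92e-06, edgeR log2 change ± SE). It averaged 300.5 ± 130.1 CPM at 20 mM and 67.4 ± 39.0 CPM at 2 mM in high light, and 552 ± 154 CPM at 20 mM and 463 ± 297 CPM at 2 mM in low light (SD, n = 8 each). Its difference between the nitrate changes missed the threshold (2.22 ± 0.76, adjusted p = 0.0641).

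RCI2B, a small membrane protein induced by cold, averaged 1.89 ± 1.30 CPM at 20 mM and 0.171 ± 0.0991 CPM at 2 mM in high light, against 3.63 ± 2.38 CPM at 20 mM and 3.36 ± 1.68 CPM at 2 mM in low light. RCI2A and RCI2B are related copies side by side in the genome, so each is uncertain against the other. RD20, a calcium-binding caleosin induced by drought, averaged 272 ± 198 CPM at 20 mM and 84.1 ± 44.7 CPM at 2 mM in high light, and 159 ± 69.2 CPM at 20 mM and 178 ± 60.7 CPM at 2 mM in low light.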
